A study of Mus musculus with 6 samples.

Results

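The genes described here encode the enzymes of the pentose phosphate pathway, the synthetases that turn its ribose into phosphoribosyl pyrophosphate (PRPP), and the phosphorylases that split uridine and thymidine into a base and a sugar phosphate. They are 10 genes chosen by symbol, *G6pdx*, *Pgls*, *Pgd*, *Tkt*, *Taldo1*, *Rpia*, *Prps1*, *Prps2*, *Upp1* and *Tymp*, of 54532 genes in the count table. All 10 passed the filter on low counts and are among the 19372 genes tested. RNA-seq was performed on hearts of mouse embryos at E9.5, 3 *Smyd1-KO* and 3 WT, each heart from a separate embryo and sequenced as its own library. *Smyd1-KO* embryos are homozygous for a mutated *Smyd1* allele from *Smyd1+/-* mice of the Jackson Laboratory, they were compared with WT embryos, embryos of both sexes were used, no treatment was given, and no Cre driver is named for the allele, so loss is not limited to a cell type. SMYD1 is a histone methyltransferase of heart and skeletal muscle. The counts on genes summed to between 48627825 and 64217529 per heart.

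The pentose phosphate pathway branches off glycolysis at glucose-6-phosphate. Its oxidative steps yield NADPH, which serves biosynthesis and the defence against oxidants, and its reversible non-oxidative steps exchange carbon between ribose phosphate and the sugar phosphates of glycolysis. Ribose phosphate is activated to PRPP, the donor of the sugar in new and salvaged nucleotides, and the fast-growing, largely glycolytic embryonic heart has a steady need for both products.

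Values per heart are CPM, counts scaled to library size with edgeR's TMM factors, and log2 fold changes compare *Smyd1-KO* with WT hearts. A gene was called when edgeR's quasi-likelihood test gave an adjusted *P* under 0.05 and the absolute log2 fold change was at least 0.5. *Smyd1* itself stood at 101, 222 and 206 CPM across *Smyd1-KO* hearts 1, 2 and 3, against 414, 379 and 270 CPM in the WT hearts 1, 2 and 3. Every *Smyd1-KO* heart was lower than every WT heart, but reads on the gene remained, and its log2 fold change of -1.01 did not pass (adjusted *P*=0.0973 by edgeR; 0.00534 by DESeq2, the only one of 15 alternatives in which it was called). Without *Smyd1-KO* heart 1 *Smyd1* had a log2 fold change of -0.73 and an adjusted *P* of 0.0586 by edgeR.

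*Smyd1-KO* heart 1 stood apart from the other hearts. The 10 cardiomyocyte markers, led by *Actc1*, summed to 9174 CPM in it, to 18783 and 19023 CPM in the other *Smyd1-KO* hearts, and to 20565, 19239 and 12353 CPM in WT hearts 1, 2 and 3. WT heart 3 was thus the next lowest, and none of these markers was at 0 in any heart. The 14 erythroid markers summed to 224, 604 and 461 CPM in *Smyd1-KO* hearts, against 929, 1230 and 1182 CPM in the WT hearts. The most abundant of them is *Tfrc*, the transferrin receptor, which other cells also make, and it made up most of the *Smyd1-KO* sums. It ran the other way, at 195, 315 and 293 CPM across *Smyd1-KO* hearts, against 168, 203 and 196 CPM in the WT hearts (log2 fold change 0.50, not called). The embryonic globin *Hbb-bh1*, named after its values were seen, was at 6.46, 73.6 and 37.6 CPM across *Smyd1-KO* hearts, against 215, 308 and 296 CPM in the WT hearts. In whole hearts, fewer cells of a type and less RNA per cell cannot be told apart.

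Of the 10 genes, 1 was called. *Upp1*, the uridine phosphorylase gene, rose 3.40-fold in *Smyd1-KO* hearts, and no pentose phosphate or PRPP synthetase gene passed the test. Among all 19372 tested genes 830 (4.28%) were called, 555 (2.86%) higher and 275 (1.42%) lower in *Smyd1-KO* hearts. *Upp1*, *Pgd* and *Taldo1* were the 3 of the 10 whose *Smyd1-KO* hearts lay wholly on 1 side of the WT hearts, *Upp1* above and the others below, a share near the 31.3% of all tested genes that did so. The median log2 fold change of the 10 genes was -0.08, beside -0.0026 over all tested genes, with 5 genes above and 5 below 0.

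**Figure D1:**
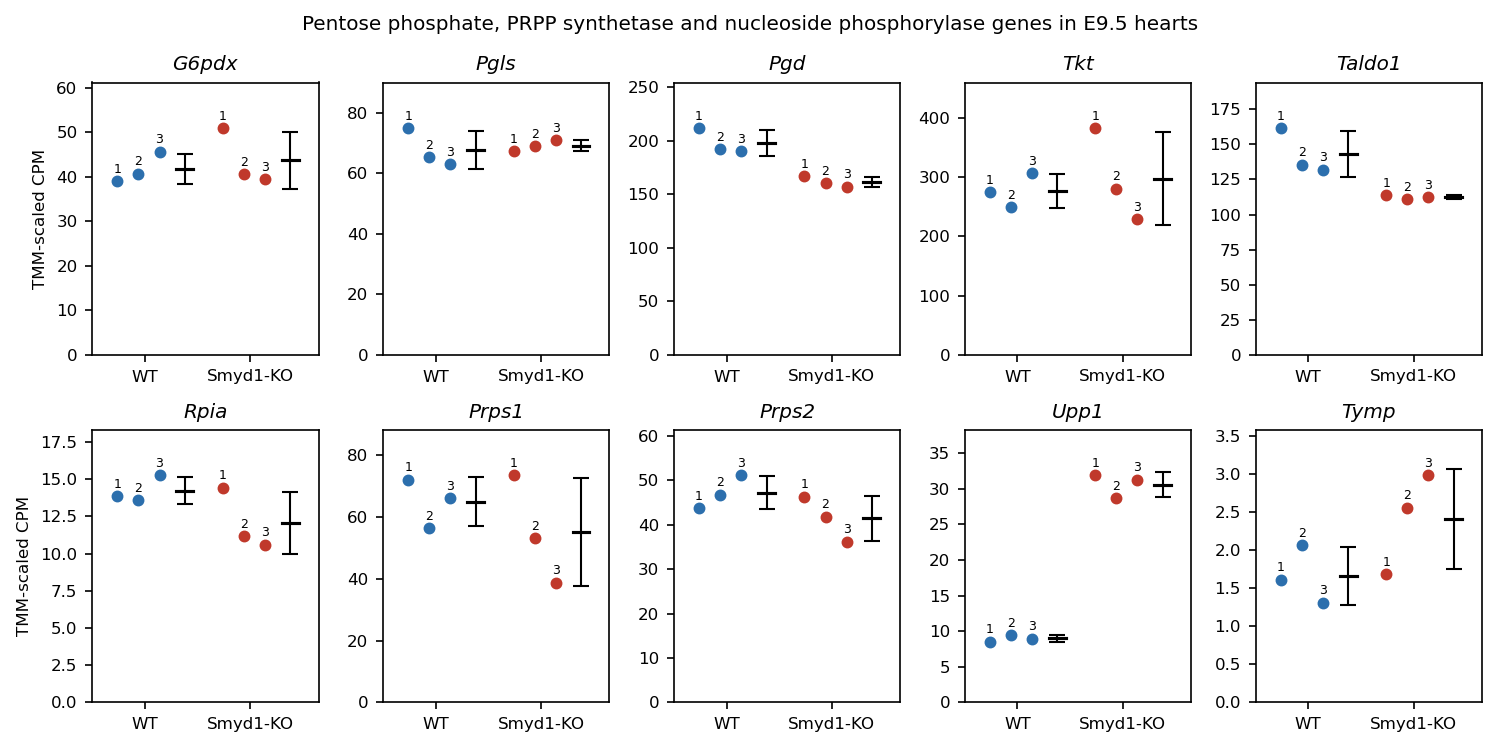
Expression of the 10 genes in each heart (points numbered by replicate), as TMM-scaled CPM on axes that start at 0, with the mean and SD of the 3 hearts of each genotype to the right of the points. *Upp1* lies between 28.6 and 31.9 CPM in *Smyd1-KO* hearts and between 8.54 and 9.47 CPM in WT hearts, *Pgd* and *Taldo1* are lower in each *Smyd1-KO* heart without passing the threshold, and the genotypes overlap in the other 7 genes.

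The oxidative branch has 3 enzymes. *G6pdx* (ENSMUSG00000031400), on the reverse strand of the X chromosome from 74409483 to 74429194 (GRCm38), encodes glucose-6-phosphate dehydrogenase, which commits glucose-6-phosphate to the pathway and makes its first NADPH. It stood at 51.0, 40.6 and 39.5 CPM across *Smyd1-KO* hearts 1, 2 and 3, against 39.0, 40.7 and 45.6 CPM in the WT hearts 1, 2 and 3. *Smyd1-KO* heart 1 was the highest of the 6, and the remaining hearts of the genotypes overlapped. The log2 fold change was 0.06 (standard error 0.122, 95% interval -0.22 to 0.35, adjusted *P*=0.781 by edgeR). Without *Smyd1-KO* heart 1 it was -0.06, so that the sign of this small difference came from a single heart. *G6pdx* shares 13.6% of its exonic bases with *Ikbkg* on the opposite strand, and with the strand setting unknown its level is less certain there.

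*Pgls* (ENSMUSG00000031807, chromosome 8, 71592176 to 71601092, forward strand) encodes the lactonase that follows. Its values were 67.4, 69.1 and 71.1 CPM in *Smyd1-KO* hearts, against 75.01, 65.3 and 63.0 CPM in the WT hearts. The *Smyd1-KO* hearts lay close together inside the range of the WT hearts. Its log2 fold change of 0.03 had a 95% interval from -0.17 to 0.23 (adjusted *P*=0.862 by edgeR). The last exons of *Pgls* overlap *Fam129c* on the same strand over 20.6% of its exonic bases, so reads there could have been counted for either gene, and *Fam129c*, named after its values were seen, was at 7.48 to 13.9 CPM.

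*Pgd* (ENSMUSG00000028961, chromosome 4, 149149991 to 149166771, reverse strand) encodes phosphogluconate dehydrogenase, which makes the pathway's other NADPH and releases ribulose phosphate. It stood at 167, 160 and 157 CPM across *Smyd1-KO* hearts 1, 2 and 3, against 212, 192 and 190 CPM in the WT hearts 1, 2 and 3. Every *Smyd1-KO* heart was below every WT heart, and the distance between the nearest hearts of the genotypes exceeded the spread among the *Smyd1-KO* hearts. The mean of the 3 *Smyd1-KO* hearts was 161 ± 4.996 CPM (SD) and that of the 3 WT hearts 198 ± 12.1 CPM. The estimate for *Pgd* in log2 was -0.29 (standard error 0.0798, 95% interval -0.48 to -0.11), with an adjusted *P* of 0.0763 by edgeR, which missed the threshold. The interval is for this gene alone and is not adjusted for the number of genes tested, and even its lower end is a smaller change than the limit of 0.5. DESeq2 gave an adjusted *P* of 0.0518, the lowest of 15 alternatives, which reached up to 0.229.

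The non-oxidative branch begins with *Rpia* (ENSMUSG00000053604), the isomerase that turns ribulose phosphate into ribose phosphate. Its values were 14.4, 11.2 and 10.6 CPM in *Smyd1-KO* hearts, against 13.9, 13.6 and 15.3 CPM in the WT hearts. *Smyd1-KO* hearts 2 and 3 were below all WT hearts, while *Smyd1-KO* heart 1 lay among them. The estimate in log2 was -0.24 (95% interval -0.59 to 0.12, adjusted *P*=0.370 by edgeR), and it ran from -0.39 without *Smyd1-KO* heart 1 (adjusted *P*=0.112 by edgeR) to -0.15 without *Smyd1-KO* heart 3. On chromosome 6, reverse strand, *Rpia* spans 70765720 to 70792232 and lies 421708 bases from *Smyd1* (71213940 to 71322233), and so in sequence that a targeted allele may carry with it from its strain of origin. Of the 25 other genes tested within 1 Mb of *Smyd1*, *Rpia* included, 2 were called higher and 0 lower in *Smyd1-KO* hearts by edgeR, their median log2 fold change was -0.09, and the part of the strain in these values was not tested. The 2 called were *Kdm3a* (1.26) and the pseudogene *Rpl34-ps1* (0.54), named after their values were seen.

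*Tkt* (ENSMUSG00000021957, chromosome 14, 30548359 to 30574720, forward strand) encodes transketolase, which moves two-carbon units between sugar phosphates with thiamine as cofactor. Its CPM were 383, 281 and 229 for *Smyd1-KO* hearts 1, 2 and 3, against 275, 250 and 307 for WT hearts 1, 2 and 3. *Smyd1-KO* heart 1 was the highest heart and *Smyd1-KO* heart 3 the lowest, so that the WT hearts lay within the range of the *Smyd1-KO* hearts. The log2 fold change of 0.10 (95% interval -0.34 to 0.54, adjusted *P*=0.773 by edgeR) turned to -0.12 without *Smyd1-KO* heart 1. The highest heart of each genotype for *Tkt* was also the highest for *G6pdx* and the lowest in the summed cardiomyocyte markers, and the part of cell composition in these values was not tested.

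*Taldo1* (ENSMUSG00000025503, chromosome 7, 141392199 to 141402968, forward strand) encodes transaldolase, which moves three-carbon units and, with transketolase, returns pentose carbon to glycolysis. It stood at 114, 111 and 112 CPM across *Smyd1-KO* hearts 1, 2 and 3, against 162, 136 and 132 CPM in the WT hearts 1, 2 and 3. All *Smyd1-KO* hearts were within a few CPM of each other and below every WT heart, of which WT heart 1 was the highest. The log2 fold change of -0.35 (standard error 0.0950, 95% interval -0.57 to -0.13) had an adjusted *P* of 0.0780 by edgeR and was not called. Without WT heart 1 it was -0.24, and over 15 alternatives the adjusted *P* ran from 0.0510 with DESeq2 to 0.219. Of 14 erythroid markers, 12 were lower in every *Smyd1-KO* heart than in any WT heart. So were 2993 of the 19372 tested genes, *Pgd* and *Taldo1* among them. By edgeR 4 of the 14 were called lower, beside 1.42% of all tested genes. Among the *Smyd1-KO* hearts, heart 1 had the lowest erythroid sum, most of it *Tfrc*, and the highest *Pgd* and *Taldo1*. The part of blood cells in these values was not tested.

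PRPP is made by synthetases encoded by *Prps1* and *Prps2*, both on the X chromosome. *Prps1* (ENSMUSG00000031432, 140456613 to 140476140, forward strand) stood at 73.5, 53.2 and 38.8 CPM across *Smyd1-KO* hearts, against 72.2, 56.5 and 66.1 CPM in the WT hearts. The *Smyd1-KO* hearts spread further than the WT hearts, from the highest to the lowest of all 6. Its log2 fold change was -0.24 (95% interval -0.75 to 0.28, adjusted *P*=0.548 by edgeR), and it ran from -0.50 without *Smyd1-KO* heart 1 (adjusted *P*=0.104 by edgeR) to -0.03 without *Smyd1-KO* heart 3 (adjusted *P*=0.929 by edgeR). *Prps2* (ENSMUSG00000025742, 167346322 to 167382749, reverse strand) stood at 46.3, 41.8 and 36.2 CPM across *Smyd1-KO* hearts, against 43.6, 46.7 and 51.1 CPM in the WT hearts. *Smyd1-KO* hearts 2 and 3 were below all WT hearts and *Smyd1-KO* heart 1 was not. Its log2 fold change was -0.19 (95% interval -0.45 to 0.08, adjusted *P*=0.349 by edgeR), with -0.27 without *Smyd1-KO* heart 1 and -0.10 without *Smyd1-KO* heart 3.

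Per exonic length, *Prps1* made up 75.5, 71.2 and 67.6% of the summed *Prps1* and *Prps2* level in *Smyd1-KO* hearts and 76.3, 70.1 and 71.5% in WT hearts. *Prps1* was the larger part in every heart, and the genotypes overlapped. The mean share was 71.4 ± 3.99% in *Smyd1-KO* and 72.6 ± 3.22% in WT hearts (SD, n=3; exact permutation test, two-sided, *P*=0.7, where 0.1 is the smallest *P* that 3 hearts against 3 allow). A copy of *Prps1*, *Prps1l3*, shares 5.06% of the 75-base stretches of *Prps1* exons, so that some reads could not be placed between them. *Prps1l3* is not part of this share. It averaged 27.1 CPM per kb in *Smyd1-KO* and 32.4 in WT hearts, close to *Prps1* at 27.7 and 32.6.

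*G6pdx*, *Prps1* and *Prps2* are the X-linked genes among the 10, and the hearts came from both sexes. *Xist*, which female cells transcribe from the inactive X chromosome, was at 2.76 CPM in *Smyd1-KO* heart 1 and 2.80 CPM in WT heart 1, and between 766 and 939 CPM in the other 4 hearts. Each genotype thus had 1 male and 2 female hearts, so sex and genotype did not coincide. The male hearts had the highest *Prps1* of the 6 (73.5 and 72.2 CPM), while for *G6pdx* they were the highest and the lowest heart (51.0 and 39.0 CPM). With sex as a term in edgeR, none of the 3 was called, at adjusted *P* values of 0.814 for *G6pdx*, 0.363 for *Prps1* and 0.382 for *Prps2*.

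*Upp1* (ENSMUSG00000020407), on the forward strand of chromosome 11 from 9118103 to 9136170, encodes uridine phosphorylase, which splits uridine into uracil and ribose phosphate and so lets cells draw on uridine for sugar. It stood at 31.9, 28.6 and 31.3 CPM across *Smyd1-KO* hearts 1, 2 and 3, against 8.54, 9.47 and 8.95 CPM in the WT hearts 1, 2 and 3. These values rest on 1550 to 1785 counts in each *Smyd1-KO* heart and 509 to 601 counts in each WT heart. The hearts of a genotype lay close together, and the lowest *Smyd1-KO* heart was far above the highest WT heart. In log2 the fold change was 1.77 (standard error 0.103, 95% interval 1.52 to 2.01, adjusted *P*=0.000694 by edgeR). Of all tested genes *Upp1* had the 10th smallest *P*, and 118 of the 555 genes called higher had a larger fold change. It was called under all 15 alternatives, including each fit without 1 of the 6 hearts, with a log2 fold change between 1.74 and 1.81. *Smyd1-KO* heart 1, which stood apart in its markers, did not stand apart in *Upp1*.

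*Tymp* (ENSMUSG00000022615, chromosome 15, 89371931 to 89377039, reverse strand) encodes thymidine phosphorylase, which splits thymidine into thymine and deoxyribose phosphate. It was scarce, at 1.69, 2.55 and 2.98 CPM in *Smyd1-KO* hearts, against 1.61, 2.06 and 1.31 CPM in the WT hearts, from 82 to 170 counts per heart. *Smyd1-KO* hearts 2 and 3 were above all WT hearts, and *Smyd1-KO* heart 1 lay among them. The log2 fold change of 0.54 had a wide 95% interval, from -0.13 to 1.202 (adjusted *P*=0.288 by edgeR), so a change of the size seen for *Upp1* lay outside the interval and a smaller one was not resolved. Over the hearts left out it ran from 0.36 without *Smyd1-KO* heart 3 (adjusted *P*=0.557 by edgeR) to 0.74 without *Smyd1-KO* heart 1 (adjusted *P*=0.120 by edgeR). *Tymp* shares 42.0% of its exonic bases with *Sco2* on the same strand and 26.3% with *Ncaph2* on the other, and since the strand setting of the counting is not given in the sources used here, its level is uncertain.

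Divided by exonic length, the levels within WT hearts ran from 65.9 ± 7.48 CPM per kb for *Taldo1* to 0.815 ± 0.187 CPM per kb for *Tymp* (SD, n=3). In CPM per kb, *Taldo1* was followed by *Tkt* (37.7), *Prps1* (32.6), *Pgd* (30.7), *Pgls* (17.98), *G6pdx* (13.6), *Prps2* (12.2), *Upp1* (4.58) and *Rpia* (2.66). The ranges over WT hearts overlapped between *Tkt* and *Prps1*, between *Prps1* and *Pgd*, and between *G6pdx* and *Prps2*, and these neighbours cannot be ranked. Within *Smyd1-KO* hearts the order in CPM per kb differed only in the place of *Upp1*, which reached 15.6 ± 0.879 CPM per kb and stood between *Pgls* (18.3) and *G6pdx* (14.2). *Upp1* and *G6pdx* overlapped in range there, as did *Taldo1* and *Tkt*, *Tkt* and *Prps1*, and *Prps1* and *Pgd*. Exonic length here is that of all annotated transcripts of a gene together, which may be longer than the transcripts present in these hearts.

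The tested genes whose values over the 6 hearts lay closest to those of *Upp1* were sought among 13178 others whose log2 CPM averaged 1 or more, by Euclidean distance between centred log2 CPM. The nearest was *Pfkfb3* (distance 0.204), which makes and removes the allosteric activator of phosphofructokinase, at 228, 208 and 219 CPM in *Smyd1-KO* hearts, against 66.3, 68.8 and 74.5 CPM in the WT hearts. *Slc2a3* (0.299), a glucose transporter gene, was at 1843, 1672 and 1949 CPM across *Smyd1-KO* hearts, against 514, 483 and 604 CPM in the WT hearts. *Pfkfb3* and *Slc2a3* were chosen for their closeness to *Upp1*, so that being higher in every *Smyd1-KO* heart followed from the choice. Their log2 fold changes were 1.64 and 1.77.

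*Upp1* has annotated first exons at more than 1 place, and its promoters are shown because it is the gene of the 10 that was called. The RefSeq promoter table for GRCm38.p6 holds windows of 300 bases, 250 before and 50 from the start of transcription on, for all 10 genes, 13 windows in all. The letters ACGTG and GCGTG (core of the hypoxia response element), TGACNNNGC (core of the antioxidant response element) and TTGCATCA (core of the amino acid response element) were searched on both strands. ACGTG read on both strands at once gives CACGTG, which is counted for each strand. Of 3 *Upp1* windows, 1 held ACGTG, 1 held GCGTG and 1 held neither. The window without a match overlaps the earlier of the windows printed here, which end 50 bases into the first exons that start at 9118103 and 9118507. Capitals mark the matches, ACGTG on the reverse strand at 35 from the start in the earlier window, within the exon, and GCGTG at -54 in the later window.
*Upp1* promoter, chr11:9117853-9118152, forward strand: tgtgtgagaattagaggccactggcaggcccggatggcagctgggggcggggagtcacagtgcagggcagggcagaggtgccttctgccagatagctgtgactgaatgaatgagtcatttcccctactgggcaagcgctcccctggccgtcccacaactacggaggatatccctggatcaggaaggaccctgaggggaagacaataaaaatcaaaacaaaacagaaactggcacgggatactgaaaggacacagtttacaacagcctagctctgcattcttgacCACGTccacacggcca
*Upp1* promoter, chr11:9118257-9118556, forward strand: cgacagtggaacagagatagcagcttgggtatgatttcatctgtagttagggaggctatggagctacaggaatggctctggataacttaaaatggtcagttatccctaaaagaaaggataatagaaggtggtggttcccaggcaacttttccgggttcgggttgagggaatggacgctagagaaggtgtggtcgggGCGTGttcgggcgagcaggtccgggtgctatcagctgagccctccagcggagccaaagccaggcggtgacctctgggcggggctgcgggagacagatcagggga

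Either ACGTG or GCGTG was in 11 of the 13 windows and in 43.8% of the 32851 windows in the table. Each of the 10 genes had a match in at least 1 window, but the share of all genes with a match was not counted. GCGTG alone was in 10 of the 13 windows and 32.4% of all windows, and ACGTG in 2 of the 13 and 19.6% of all. The antioxidant core TGACNNNGC was in 2 of the 13 windows, those of *G6pdx* and of the later *Pgd* start, and 12.4% of all. The amino acid response core TTGCATCA was in 0 of the 13 and 0.895% of all. A match describes letters only.

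The other genes around these pathways were read from 9 lists with 98 genes, chosen with earlier results of these data known. Of the 88 tested, edgeR called 12 higher and 1 lower in *Smyd1-KO* hearts. Among all tested genes it called 2.86% higher and 1.42% lower. In the remaining pentose phosphate list, 6 of 9 genes were tested, 1 fell and the median log2 fold change was -0.06. The gene that fell was *Tigar*, whose product lowers a regulator of phosphofructokinase and so favours the entry of glucose into the pentose phosphate pathway. It was at 18.2, 20.9 and 19.9 CPM across *Smyd1-KO* hearts, against 38.2, 32.3 and 30.5 CPM in the WT hearts. All *Smyd1-KO* hearts were well below all WT hearts (log2 fold change -0.77, standard error 0.117, adjusted *P*=0.0169 by edgeR). *Rpe*, the epimerase of the non-oxidative branch, had a log2 fold change of -0.19 (adjusted *P*=0.356 by edgeR). *H6pd*, the glucose-6-phosphate dehydrogenase of the endoplasmic reticulum, was higher in every *Smyd1-KO* heart at 0.45 but did not pass (adjusted *P*=0.128 by edgeR). *Tktl2* was at 0 in every heart, and *Tktl1* and *G6pd2* were too low for a test.

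Phosphopentomutase, which links the ribose phosphate freed by uridine phosphorylase to the pentose phosphate pathway, needs a remark on names. The gene that GENCODE calls *Pgm2* (ENSMUSG00000029171, phosphopentomutase) is listed as *Pgm1* in the count table, and the gene that GENCODE calls *Pgm1* (ENSMUSG00000025791, phosphoglucomutase) is listed as *Pgm2*. By gene identifier, phosphopentomutase was at 23.8, 18.6 and 17.2 CPM across *Smyd1-KO* hearts, against 19.6, 17.7 and 22.1 CPM in the WT hearts. The genotypes overlapped (log2 fold change 0.0045, adjusted *P*=0.989 by edgeR). Phosphoglucomutase, of glycogen metabolism, outside the lists and named after its values were seen, was at 248, 457 and 462 CPM across *Smyd1-KO* hearts, against 205, 153 and 123 CPM in the WT hearts (log2 fold change 1.28, adjusted *P*=0.0449 by edgeR).

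Of 3 tested partners and copies of the PRPP synthetases 0 were called by edgeR, with log2 fold changes of -0.19 for *Prpsap1*, which encodes a synthetase-associated protein, and -0.26 for *Prps1l3*. Of 18 nucleoside and base salvage genes, 1 rose and 0 fell, with a median of -0.07. The gene that rose was *Dguok*, the mitochondrial deoxyguanosine kinase, at 24.5, 24.002 and 26.2 CPM in *Smyd1-KO* hearts, against 16.6, 14.8 and 18.4 CPM in the WT hearts (log2 fold change 0.59, adjusted *P*=0.0337 by edgeR). *Uck2*, the uridine kinase that competes with *Upp1* for uridine, was at 0.11 (adjusted *P*=0.477 by edgeR), and *Adk*, adenosine kinase, at -0.08. *Upp2*, the other uridine phosphorylase gene, chosen after its values were seen, was at 1.73 to 2.67 CPM, and its log2 fold change of 0.10 was not called.

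Synthesis of new nucleotides uses PRPP directly. Of 11 purine synthesis genes 0 were called by edgeR, with a median log2 fold change of -0.19, and 8 of the 11 were below 0. *Paics* (0.30) and *Impdh2* (0.27) were above WT in every *Smyd1-KO* heart. *Ppat* (-0.19), *Gart* (-0.31) and *Adsl* (-0.23), named after their values were seen, were below WT in every one. Of 14 pyrimidine and deoxynucleotide genes 0 were called, 11 were below 0, the median was -0.24, and 6 had all *Smyd1-KO* hearts below all WT hearts, as 2993 of the 19372 tested genes did. Without *Smyd1-KO* heart 1, 3 of the 14 were called lower by edgeR, and DESeq2 called 2 lower with all hearts. The lowest log2 fold change of the list was that of *Rrm2*, named after its values were seen, at -0.76 (adjusted *P*=0.0522 by edgeR). *Cad*, which starts pyrimidine synthesis, was at 310, 219 and 180 CPM across *Smyd1-KO* hearts, against 311, 371 and 400 CPM in the WT hearts, a log2 fold change of -0.61 that did not pass (adjusted *P*=0.120 by edgeR). *Samhd1*, which breaks down deoxynucleotides, passed on *P* (adjusted *P*=0.0244 by edgeR) but not on size (-0.42), and was named after its values were seen. None of the 5 tested nucleoside transporters (median -0.0090) or 10 tested nucleotide breakdown genes (median -0.21) was called by edgeR. The cell cycle list, whose genes share the demand for nucleotides, had 1 of 10 called, *Ccne1* at -0.98, and a median of -0.08.

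NADPH can also come from other enzymes, and sugar phosphates can go on through glycolysis. Of all tested genes, 2.86% were called higher. Of 12 genes on the list of other NADPH sources, 4 rose and 0 fell, with a median log2 fold change of 0.27. Among the 4, *Mthfd1l*, a folate ligase, and *Nadk2*, an NAD kinase, do not themselves yield NADPH, nor does the listed NAD kinase *Nadk*. Without *Smyd1-KO* heart 1 edgeR called 4 of the 12 higher and 1 lower, and with any other heart left out it called 1 or 2 higher and 0 lower. *Mthfd2* and *Aldh1l2* were each called in 1 of these 6 fits. With all hearts, 4 of the 12 were above WT in every *Smyd1-KO* heart, as 3075 of the 19372 tested genes were, and 4 that were not called were below, *Idh1* (-0.30), *Mthfd1* (-0.43), *Nnt* (-0.57) and *Nadk* (-0.23). *Idh1*, *Nnt* and *Nadk* were named after their values were seen. *Mthfd1l*, *Mthfd2* and *Aldh1l2*, of the mitochondrial folate pathway, and *Nadk2*, the mitochondrial NAD kinase, had log2 fold changes of 0.91, 0.81, 2.73 and 0.67. *Mthfd1l* was at 175, 200 and 195 CPM across *Smyd1-KO* hearts, against 98.6, 102 and 103 CPM in the WT hearts. *Aldh1l2* was at 5.43 CPM in *Smyd1-KO* heart 1, 21.8 and 16.8 CPM in the other *Smyd1-KO* hearts and 1.89 to 2.45 CPM in WT hearts. Leaving out *Smyd1-KO* heart 1 moved *Aldh1l2* to a log2 fold change of 3.13. The mitochondrial *Idh2* was not called, at 0.20. Of 9 glycolysis enzymes that share sugar phosphates with the pathway, 7 rose and 0 fell, with a median of 0.79. The paper had reported glycolysis among the pathways over-represented in genes upregulated in E9.5 *Smyd1-KO* hearts. With a heart left out, 1 to 7 of the 9 were called higher by edgeR, and 4 with sex as a term. The 7 were *Hk2*, *Gpi1*, *Pfkl*, *Pfkp*, *Aldoa*, *Tpi1* and *Gapdh*, from 0.62 for *Gapdh* to 1.29 for *Pfkp*, and *Hk1* (0.39) and *Pfkm* (0.17) did not pass. Of the 6 fits with a heart left out, *Pfkp* was called in 1 and *Aldoa*, *Tpi1* and *Gapdh* in 2 each. Whether these lists differed from the 10 genes was not tested.

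**Figure D2:**
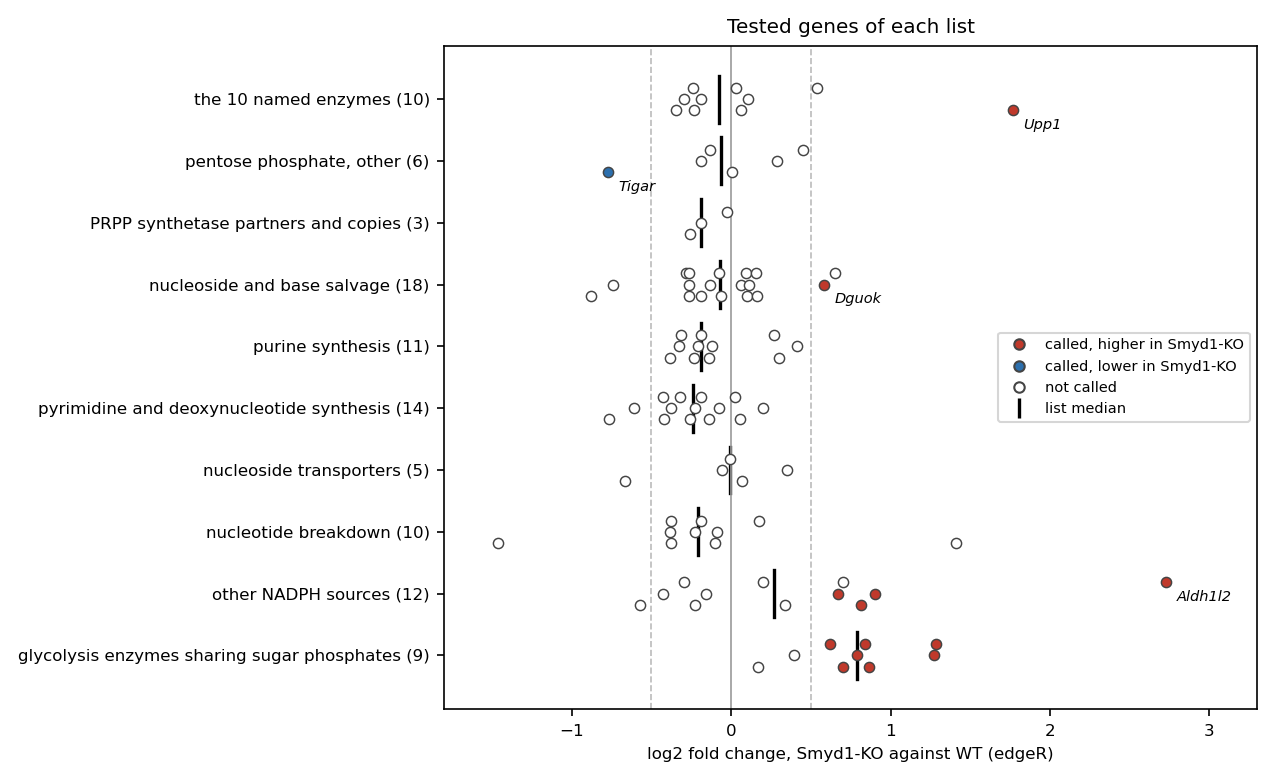
Log2 fold change of each tested gene, *Smyd1-KO* against WT, by list (horizontal axis; the number of tested genes is in parentheses, the bar is the list median, and dashed lines mark the limit of 0.5 in either direction). Among the 10 enzymes *Upp1* (1.77) is the called gene and the other 9 lie between -0.35 and 0.54. Of the 9 glycolysis enzymes 7 are called higher, as are 4 of the 12 genes on the list of other NADPH sources. Of all tested genes 2.86% are called higher. *Mthfd1l* and *Nadk2*, which do not themselves yield NADPH, are among those 4.

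The number of calls in the 9 lists varied with the heart left out, while *Upp1* was called in every such fit. In place of 13 calls there were 18 without *Smyd1-KO* heart 1, 4 without heart 2 and 5 without heart 3, and 9, 2 and 2 without WT hearts 1, 2 and 3. *Hk2* and *Mthfd1l* were called in all 6 fits that left out a heart, *Tigar* in 2 of them (adjusted *P* from 0.0230 to 0.0858 by edgeR) and *Dguok* in 1 (0.0401 to 0.139 by edgeR). Phosphoglucomutase was called in 1 of the 6, without *Smyd1-KO* heart 1, at a log2 fold change of 1.52 and an adjusted *P* of 0.00883 by edgeR. It was not called with sex as a term (adjusted *P*=0.0815 by edgeR) or with a replicate block (adjusted *P*=0.18 by edgeR).

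Markers of other cell types were read beside these values. Of 10 endothelial and endocardial markers, led by *Kdr*, 1 was called higher, *Cldn5*, and 6 of the 10 were above 0. Of those not called, *Kdr* (0.70) was above WT in every *Smyd1-KO* heart, and *Nfatc1* (-0.83) and *Npr3* (-0.52), named after their values were seen, were below WT in every one. The endothelial and endocardial sums were 694, 815 and 1038 CPM in *Smyd1-KO* hearts, against 756, 801 and 666 CPM in the WT hearts. The 6 epicardial markers, led by *Upk3b*, were all above 0 in log2 fold change with 0 called by edgeR, and summed to 141, 205 and 266 CPM in *Smyd1-KO* hearts, against 122, 106 and 129 CPM in the WT hearts. The 5 smooth muscle markers, led by *Acta2*, summed to 1222, 2183 and 2291 CPM in *Smyd1-KO* hearts, against 2873, 2393 and 1579 CPM in the WT hearts, with 0 called by edgeR. All 5 were below 0 in log2 fold change (median -0.46), and 2 of them were below WT in every *Smyd1-KO* heart. The 9 macrophage and myeloid markers, led by *Cd68*, summed to at most 8.73 CPM in any heart, and 2, 2 and 1 of them were at 0 in *Smyd1-KO* hearts 1, 2 and 3 and 0, 4 and 3 in WT hearts 1, 2 and 3. The part of these cell types in the results was not tested.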

How the data were processed

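The authors selected poly A RNA, sequenced it as 75-base paired-end reads, aligned the reads to mm10 with STAR and deposited raw counts per gene, without normalization. The counting tool, annotation release and strand setting are not given in the sources used here. The deposited normalized table was not used. Counts were compared with edgeR 4.0.16 in R 4.3.3 (filterByExpr, TMM, quasi-likelihood test, Benjamini-Hochberg adjustment over 19372 genes; biological coefficient of variation 22.5%). The standard error is the log2 fold change divided by the square root of F. Exonic lengths and positions came from GENCODE for GRCm38, tables were made in Python 3.11.15 with pandas 2.3.3, and plots with matplotlib 3.10.9. The members and lists were chosen with earlier results of these data known. Named genes are the 10 members, called genes of the lists, the 2 uncalled genes of highest CPM of a list as examples, and the 3 genes nearest to a called member, 1 of which is not reported here. *Smyd1*, *Xist*, overlapping genes, untested genes and the most abundant marker of a list are also named, and other genes are marked as named after their values were seen. Alternatives were DESeq2 1.42.0, RLE or upper-quartile factors, no filter, at least 10 counts in every heart, leaving out haemoglobin and mitochondrial genes, no limit on the fold change, a replicate block, sex as a term, and leaving out each heart.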

Additional observations from a re-analysis of the deposited data

How the results depend on the processing

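*Upp1* was called and the other 9 of the 10 genes were not under all 15 alternatives, with the adjusted *P* of *Upp1* at most 0.0288 by edgeR. The log2 fold changes of *Pgd* (-0.32 to -0.24) and *Taldo1* (-0.40 to -0.24) stayed below 0 throughout. With hearts left out the log2 fold change of *G6pdx* ran from -0.05923, reversed without *Smyd1-KO* heart 1, to 0.1357. That of *Tkt* ran from -0.1196, reversed without the same heart, to 0.2621. That of *Pgls* ran from -0.01791, reversed without WT heart 3, to 0.1164. The cause was not tested. The difference in the *Prps1* share was -1.22 percentage points, and it reversed to 0.711 without *Smyd1-KO* heart 3 and 0.588 without WT heart 1, a range from -3.27 to 0.711 over the hearts left out. Genes called numbered 830, and 97 to 1256 with a heart left out. DESeq2 called 1749. It gave an unadjusted *P* for 33106 genes, in place of 19372, and then applied its own filter on low counts before adjustment. Both the test and the filter had thus changed. Without the filter on low counts edgeR called 1025. Calls in the 9 lists numbered 13, 8 with sex as a term, and 2 to 18 with a heart left out.

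Hearts of the same number came from separate embryos. Their deviations from the mean of their genotype had a mean correlation of -0.151, against 0.0733 for hearts of other numbers. Such deviations cancel out within a genotype, so the value for other numbers largely follows from that for the same number. The comparison therefore cannot decide whether the numbers pair the hearts, and a shared litter or batch was not tested. With the replicate block, 59 genes were called, *Upp1* among them (log2 fold change 1.77, adjusted *P*=0.0288 by edgeR), and 1 gene of the 9 lists, *Hk2* (adjusted *P*=0.0361 by edgeR).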

Other observations

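The summed CPM of the Y-linked genes *Ddx3y*, *Kdm5d*, *Uty* and *Eif2s3y* was 40.9 in *Smyd1-KO* heart 1 and 157 in WT heart 1, the male hearts, although *Xist* was near 0 in both.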
